A study of Mus musculus with 9 samples.

Results

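The collagen chains of hyaline cartilage were followed across 3 mouse skeletal tissues in raw RNA-seq counts. They are encoded by Col2a1 (type II), Col9a1, Col9a2 and Col9a3 (type IX), Col11a1 and Col11a2 (type XI) and Col27a1 (type XXVII). These 7 genes were chosen by name from the 43472 genes in the count table, and all 7 passed the filter on low counts with which 14257 genes were tested. The study sequenced RNA from 9 libraries of C57BL/6J mice: 3 from bone (Bone, labelled osteoblasts), 3 from mature cartilage (MatC, labelled mature chondrocytes) and 3 from immature cartilage (ImC, labelled immature chondrocytes). No genotype, treatment, anatomical site or age is given beyond the strain, and nothing says whether libraries of 1 group came from separate animals, so that p-values measure the spread between these libraries, which may be technical. The title names averaging and synergism between the gene networks of cartilage and bone during cartilage maturation, which sets the question of where MatC stands between the other tissues.

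Type II collagen is a homotrimer of the Col2a1 product and forms the bulk of the cartilage fibril. Type XI collagen lies inside the fibril and limits its width; it joins the Col11a1 and Col11a2 products with a modified Col2a1 product, and Col11a1 chains are also known from hybrid molecules with type V chains outside cartilage. Type IX collagen, a trimer of its 3 gene products, decorates the fibril surface and belongs to the fibril-associated collagens with interrupted triple helices (FACIT), while Col27a1 encodes a fibrillar collagen with a shorter helix known from cartilage and its border with bone.

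Depth ranged from 7913684 to 23159547 counts per library. Mitochondrial genes took 7.24% to 8.91% of the counts in Bone, 33.7% to 82.3% in MatC and 32.0% to 55.0% in ImC, so levels are counts per 1e6 reads (CPM) with trimmed mean of M values (TMM) scaling, which discounts such a few-gene load. MatC replicate 3 had the highest mitochondrial share, and reads were seen in 14940 genes there, against 17535 to 19584 in the other libraries. The groups' labels were set against marker lists that leave the 7 chains out. The 15 osteoblast markers summed to 89053 to 106039 CPM in Bone, 2561 to 31125 CPM in MatC and 975.1 to 2185 CPM in ImC, and the 14 chondrocyte markers summed to 160.2 to 165 CPM in Bone, 3500.0 to 12344 CPM in MatC and 4357 to 8249 CPM in ImC. Among the chondrocyte markers Scrg1 was at 0 in every Bone library, and Acan was at 0.596 to 1.91 CPM there. Most of the Bone sum came from Hapln1 (22.9 to 60.5 CPM), Sox9 (28.0 to 44.6 CPM), Sox6 (36.05 to 40.7 CPM) and Fgfr3 (21.4 to 40.99 CPM). Markers of other cells were present too. In Bone the 8 erythroid markers summed to 6440 to 9212 CPM, the 8 osteoclast markers to 488 to 1077 CPM and the 10 endothelial markers to 62.0 to 192 CPM. In MatC the erythroid markers summed to 874 to 3508 CPM. The sums thus do not show that a library held its labelled cell type alone. In bulk tissue, fewer cells of a type and less RNA per cell cannot be told apart.

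In Bone the type IX chains were at 1.71 to 3.79 CPM, Col2a1 and Col27a1 were lower than in cartilage but at 36.3 to 682 CPM, and Col11a1 overlapped cartilage. None of the 7 chains passed the test between MatC and ImC, which 7.23% of all genes tested passed.

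**Figure D1:**
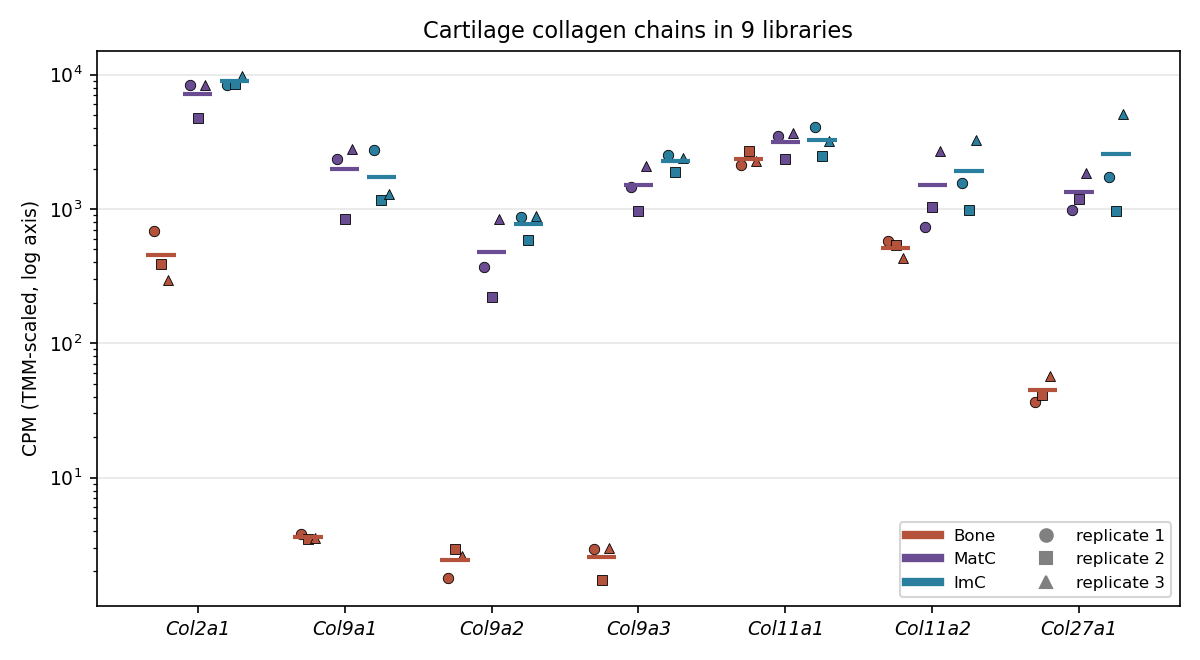
Level of each chain in every library, in TMM-scaled CPM on a log axis; symbols mark the replicate number and bars the group mean of 3 libraries for Bone, MatC and ImC. The Bone libraries hold 1.71 to 3.79 CPM of the type IX chains, and 2126 to 2699 CPM of Col11a1, which overlaps both cartilage groups.

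The genes lie on 6 chromosomes in the GRCm38 assembly (mm10) with GENCODE M21 annotation. Col2a1 is at chr15:97975602-98004695 on the minus strand, and the others are on the plus strand: Col9a1 at chr1:24177610-24252684, Col9a2 at chr4:121039385-121055322, Col9a3 at chr2:180597790-180622189, Col11a1 at chr3:114030540-114220718, Col11a2 at chr17:34039437-34066685 and Col27a1 at chr4:63214004-63334991. The library kit does not mark strand. Tcfl5, on the other strand, shares 234 bases with Col9a3, and held 3 to 58 reads per library. Mir455 lies within Col27a1 and held 1 read in all 9 libraries together.

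The chain that stayed high in Bone, Col11a1, and a chain that was among the lowest there, Col9a1, are shown by the sequence before their first exon. Both are from RefSeq windows of 300 bases around the gene start (GRCm38.p6, plus strand, 250 bases of them upstream), cut where any annotated exon begins, at chr3:114030290-114030478 for Col11a1 and chr1:24177360-24177588 for Col9a1. The capitals mark the GC box GGGCGG.
Col11a1: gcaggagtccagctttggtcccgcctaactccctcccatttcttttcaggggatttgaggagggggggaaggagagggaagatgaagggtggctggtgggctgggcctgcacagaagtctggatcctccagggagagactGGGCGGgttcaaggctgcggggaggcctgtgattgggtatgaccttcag
Col9a1: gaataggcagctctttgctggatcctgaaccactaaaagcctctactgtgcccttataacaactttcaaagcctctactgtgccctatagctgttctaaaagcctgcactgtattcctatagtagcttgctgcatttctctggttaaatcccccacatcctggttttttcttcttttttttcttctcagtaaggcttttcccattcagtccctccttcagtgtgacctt

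The RefSeq table matched 5 of the 7 genes with 6 windows, since Col9a1 has 2 starts. Each full window was searched on both strands for the GC box GGGCGG, for the letters TATAAA of a TATA box and for 3 cores bound by SOX-type factors. The cores were ACAAAG and the pair ACAATG and AACAAT, which can overlap each other. GGGCGG was found 2 times each in the windows of Col11a1, Col11a2 and Col27a1 and 3 times in that of Col9a2, and in neither window of Col9a1. TATAAA was found 1 time, in Col11a2. None of the 6 windows held a SOX-type core. Of all 32851 windows of this length, 35.7% held GGGCGG, 13.6% held TATAAA, 18.7% held ACAAAG, 12.6% held ACAATG, 10.7% held AACAAT and 33.2% held any of the 3 cores. These matches are letters in a window and carry no measure of binding.

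Between Bone and ImC, 6 of the 7 chains were lower in Bone by edgeR's quasi-likelihood test, while 30.7% of all genes tested were called, 16.5% lower and 14.2% higher. The median log2 fold change of the 7 was -5.85, against -0.015 over all 14257 genes. Between Bone and MatC, 5 of 7 were lower, while 5.98% of all genes were called, 4.63% lower and 1.35% higher, and the medians were -4.90 for the chains and -0.031 for all genes. The Bone libraries lay wholly below the ImC libraries for 6 chains, which held for 28.8% of all genes, and wholly below the MatC libraries for the same 6, which held for 17.7%. Both comparisons use the same Bone libraries.

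**Figure D2:**
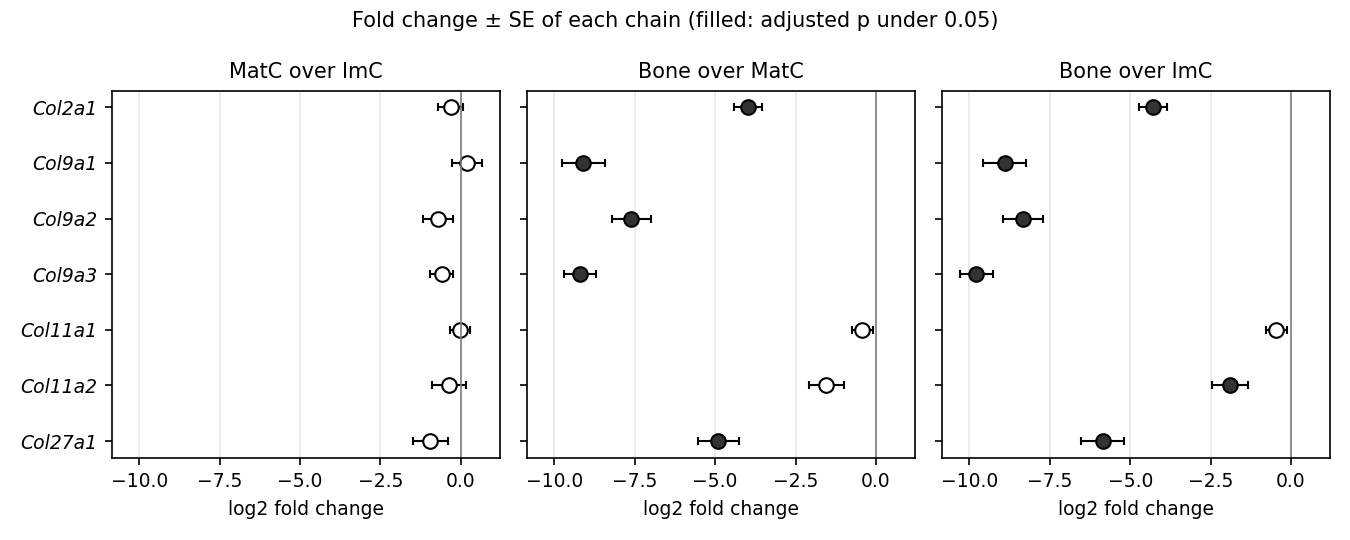
Log2 fold change of each chain with its standard error (SE) from the fit to all 9 libraries, for MatC over ImC, Bone over MatC and Bone over ImC; filled points have an adjusted p under 0.05. The type IX chains lie at -9.79 to -7.61 in both Bone comparisons, Col11a1 at -0.46 and -0.42, and all open points of the MatC over ImC panel lie between -0.95 and 0.19.

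Col2a1, the main chain of the cartilage fibril, had 682, 388 and 297 CPM in the Bone libraries, 8396, 4769 and 8399.7 CPM in the MatC libraries and 8402, 8574 and 9782 CPM in the ImC libraries. Every Bone library was far below every cartilage library, and MatC replicate 2 was the low one among the cartilage libraries. In Bone the log2 fold change was -4.29 ± 0.44 (SE) over ImC (adjusted p = 0.000261, edgeR) and -3.98 ± 0.44 over MatC (adjusted p = 0.000963). Mean levels in Bone were thus 5.11% of those in ImC, with single Bone libraries at 3.33% to 7.64%.

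The type IX chains showed the lowest levels in Bone. Col9a1, which encodes the alpha 1 chain, had 3.79, 3.51 and 3.55 CPM in Bone, 2343, 848 and 2785 CPM in MatC and 2767, 1172 and 1286 CPM in ImC. Its cartilage groups overlapped, and both had low and high libraries. The log2 fold change in Bone was -9.10 ± 0.66 over MatC (adjusted p = 0.000185, edgeR) and -8.91 ± 0.66 over ImC (adjusted p = 5.92e-05).

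Col9a2, the alpha 2 chain, had 1.79, 2.91 and 2.59 CPM in Bone, 367, 219 and 841 CPM in MatC and 866, 584 and 887 CPM in ImC. Only MatC replicate 3 reached the ImC range. Its log2 fold change in Bone was -7.61 ± 0.61 over MatC (adjusted p = 0.000216, edgeR) and -8.33 ± 0.63 over ImC (adjusted p = 5.92e-05).

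Col9a3, the alpha 3 chain, had 2.92, 1.71 and 2.98 CPM in Bone, 1457, 963 and 2078 CPM in MatC and 2536, 1886 and 2389 CPM in ImC. MatC replicate 3 again overlapped ImC and the other MatC libraries were below it. The log2 fold change in Bone was -9.19 ± 0.50 over MatC (adjusted p = 2.66e-05, edgeR) and -9.79 ± 0.51 over ImC (adjusted p = 1.61e-05), the lowest of all 38 collagen genes tested in the comparison with ImC. Behind the Bone levels of the 3 chains stood 20 to 70 reads per library, above the 3 reads (0.162 to 0.257 CPM in Bone) that a count of 0 would allow.

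Of the type XI chains, Col11a1 had 2126, 2699 and 2283 CPM in Bone, 3494, 2342 and 3692 CPM in MatC and 4061, 2466 and 3226 CPM in ImC. Bone replicate 2 lay above replicate 2 of both cartilage groups, so all 3 groups overlapped. Its log2 fold change in Bone was -0.42 ± 0.32 over MatC (adjusted p = 0.475, edgeR) and -0.46 ± 0.32 over ImC (adjusted p = 0.296), and with library size as the only scaling it was 0.57 over MatC and 0.052 over ImC, where the median of all genes was 0.95 and 0.46. The Bone mean was 72.9% of the ImC mean, with single Bone libraries at 65.4% to 83.0%.

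Col11a2 had 576, 536 and 428 CPM in Bone, 734, 1034 and 2722 CPM in MatC and 1568, 980.1 and 3236 CPM in ImC. All Bone libraries were below all cartilage libraries, and replicate 3 was the high one in both cartilage groups. The log2 fold change in Bone was -1.91 ± 0.56 over ImC (adjusted p = 0.0273, edgeR), and -1.54 ± 0.55 over MatC, which did not pass (adjusted p = 0.132) except in DESeq2 (adjusted p = 0.0481). The call over ImC was lost with library size as the only scaling (adjusted p = 0.109), without any 1 of the Bone libraries (0.0736, 0.0896 and 0.0997 without replicates 1, 2 and 3), without ImC replicate 1 (0.0514) or ImC replicate 3 (0.0790, with the log2 fold change at -1.31).

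Col27a1, the type XXVII chain, had 36.3, 41.3 and 56.8 CPM in Bone, 983, 1181 and 1845 CPM in MatC and 1723, 968 and 5067 CPM in ImC. The Bone libraries were close to each other and far below the rest, and ImC replicate 3 stood above every other library. The log2 fold change in Bone was -4.90 ± 0.64 over MatC (adjusted p = 0.00256, edgeR) and -5.85 ± 0.67 over ImC (adjusted p = 0.000399). Without ImC replicate 3 the difference from ImC was -4.90 and still passed.

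Markers of chondrocytes moved with these values. All 14 tested chondrocyte markers were called lower in Bone than in ImC by edgeR at an adjusted p under 0.05, as were 16.5% of all genes, and 11 of the 14 were called lower in Bone than in MatC, as were 4.63% of all genes. Acan, the core protein of the cartilage proteoglycan aggrecan, had a Bone mean of 0.101% of its ImC mean, and Matn1, a cartilage matrix adaptor protein, 0.0801%. Hapln1, the link protein that ties aggrecan to hyaluronan and a gene chosen after its values were seen, kept 3.91% of its ImC mean, with single Bone libraries at 2.50% to 6.62%. The type IX chains were at 0.112% (Col9a3), 0.208% (Col9a1) and 0.312% (Col9a2) of ImC, and Sox9, a chondrocyte transcription factor, was at 4.82%. The markers differed in how far they fell, and Sox6, Chad and Fgfr3 fell less than those named above. Sox6 was at 36.05 to 40.7 CPM in Bone and 110.5 to 210.6 CPM in ImC. Its highest Bone library lay above its lowest MatC library (40.7 against 39.7 CPM). Chad was at 5.96 to 10.5 CPM in Bone and 48.7 to 57.99 CPM in ImC. Fgfr3 was at 21.4 to 40.99 CPM in Bone and 130.5 to 422.04 CPM in ImC. The part of remaining chondrocyte RNA in the Bone levels was not tested.

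Between MatC and ImC none of the 7 chains was called by edgeR (0 at an unadjusted p under 0.05, 0 in DESeq2 and 0 in limma-voom), while 7.23% of all genes tested were, 5.09% higher and 2.15% lower. The median log2 fold change of the chains was -0.37, against 0.029 over all genes. Only for Col2a1 did MatC lie wholly below ImC, as it did for 12.5% of all genes, and the gap was between 8399.7 and 8402 CPM. The largest differences were those of Col27a1 at -0.95 ± 0.55 (adjusted p = 0.317), Col9a2 at -0.71 ± 0.45 (adjusted p = 0.370) and Col9a3 at -0.60 ± 0.35 (adjusted p = 0.323). Without ImC replicate 3 the difference of Col27a1 was -0.012.

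The remaining chains had log2 fold changes in MatC over ImC of -0.31 ± 0.39 for Col2a1 (adjusted p = 0.667, edgeR), -0.37 ± 0.54 for Col11a2 (adjusted p = 0.721), -0.034 ± 0.32 for Col11a1 (adjusted p = 0.962) and 0.19 ± 0.46 for Col9a1 (adjusted p = 0.840). The sign of the last 3 turned when single libraries were left out: Col11a2 was 0.23 without ImC replicate 3, Col11a1 0.15 without ImC replicate 1 or MatC replicate 2, and Col9a1 -0.025 without ImC replicate 2 and -0.10 without MatC replicate 3. The SEs were 0.32 to 0.55 with 3 libraries a group, so the lack of calls does not show that the chains were equal in MatC and ImC.

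Markers of other cells differed between the cartilage groups, within MatC and within ImC. The 8 erythroid markers summed to 1425 CPM in ImC replicate 3, against 10.2 and 21.1 CPM in ImC replicates 1 and 2. In MatC replicates 1, 2 and 3 the 11 skeletal muscle markers summed to 28.8, 321 and 63.6 CPM. The 10 endothelial markers summed to 121, 318 and 20.9 CPM in the same libraries. MatC replicate 2, the lowest MatC library in Col2a1, the 3 type IX chains and Col11a1, had the highest sum of the 15 osteoblast markers in MatC (31125 CPM, against 9416 CPM and 2561 CPM in replicates 1 and 3) and of the 8 osteoclast markers (591 CPM, against 97.8 CPM and 33.9 CPM). MatC replicate 3 was the highest MatC library in all 7 chains (in Col2a1 by 8399.7 against 8396 CPM in replicate 1). It also had the highest sum of the 9 hypertrophic chondrocyte markers, at 13691 CPM. Pth1r (7125 CPM) and Col10a1 (4760 CPM) made up most of that sum. Mef2c, another of these markers, was lowest there, at 383 CPM against 634 and 442 CPM in replicates 1 and 2. These orders are by TMM-scaled CPM, and the marker sums were made with that scaling only. The TMM factor was 0.329 in MatC replicate 3, against 1.29 and 0.613 in replicates 1 and 2. With library size as the only scaling, replicate 1 was the highest MatC library in all 7 chains. Col2a1 was then at 10805, 2924 and 2761 CPM in replicates 1, 2 and 3, and Col11a1 at 4497, 1436 and 1213 CPM. The part of these markers in the chains' spread was not tested.

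In a contrast of MatC with the log2 midpoint of Bone and ImC, 5 of 7 chains were higher in MatC by edgeR, while 2.93% of all genes were called, 2.85% higher and 0.0772% lower. This contrast shares its libraries with the comparisons above and is fixed by them. On the log2 scale it is the mean of MatC over Bone and MatC over ImC. Its calls follow from the low Bone levels and are no separate result. Col9a1 was higher by 4.65 ± 0.41 on the log2 scale (adjusted p = 0.000520), Col9a3 by 4.30 ± 0.30 (adjusted p = 0.000164) and Col9a2 by 3.45 ± 0.39 (adjusted p = 0.00157). Col11a2 at 0.59 ± 0.46 (adjusted p = 0.626) and Col11a1 at 0.19 ± 0.27 (adjusted p = 0.815) did not pass.

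Col27a1 was higher than the midpoint by 1.97 ± 0.45 (adjusted p = 0.0460, edgeR) and Col2a1 by 1.83 ± 0.32 (adjusted p = 0.0169). The Col27a1 call was lost with size factors of the RLE method (adjusted p = 0.0511), with library size as the only scaling (0.269), and without any 1 of the libraries except ImC replicates 2 and 3 (0.0622 to 0.161). The Col2a1 call was lost with library size as the only scaling (0.277) and without Bone replicate 2 (0.0724), Bone replicate 3 (0.0549) or ImC replicate 1 (0.0609).

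Levels of different chains were compared per kilobase (kb) of annotated transcript, as CPM per kb. This assumes even coverage along each transcript, which was not tested. In Bone the order was Col11a1 (309 ± 38.6, SD, n = 3), Col2a1 (89.3 ± 39.4), Col11a2 (84.9 ± 12.7), Col27a1 (5.88 ± 1.40) and the type IX chains (0.831 to 0.943). Col2a1 and Col11a2 overlapped there, as did the type IX chains among themselves, and the other steps were wider than the spread. In MatC the order was Col2a1 (1408 ± 410.5), Col9a1 (519.6 ± 265), Col9a3 (492 ± 183), Col11a1 (414 ± 95.05), Col11a2 (247 ± 177), Col27a1 (176 ± 59.3) and Col9a2 (163 ± 111). In ImC it was Col2a1 (1747 ± 147), Col9a3 (745 ± 112), Col9a1 (454 ± 232), Col11a1 (424 ± 104), Col27a1 (339.7 ± 287), Col11a2 (319 ± 193) and Col9a2 (266 ± 57.8). In both cartilage groups Col2a1 stood above the next chain in every library, and each neighbouring pair below it overlapped.

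The make-up of the chains per kb therefore differed by tissue. Col11a1 made up 63.1% ± 7.88 (SD, n = 3) of the 7 chains in Bone, 12.5% ± 1.70 in MatC and 9.88% ± 1.68 in ImC. Col2a1 made up 17.9% ± 7.01 in Bone, 41.8% ± 4.93 in MatC and 41.4% ± 6.80 in ImC. The type IX chains together held under 1% in every Bone library, where the highest single value was 0.224%, and Col11a2 was at 17.2% ± 1.22 in Bone, 7.07% ± 3.35 in MatC and 7.09% ± 3.24 in ImC.

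**Figure D3:**
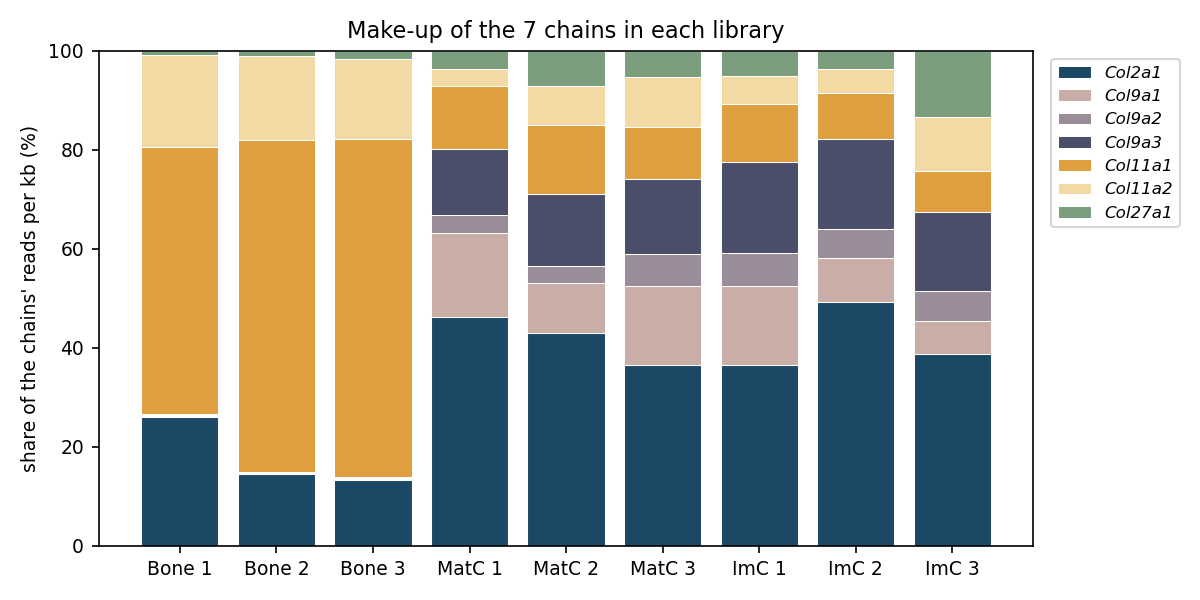
Share of each chain in the reads per kb of the 7 chains, in percent, for each Bone, MatC and ImC library. Col11a1 takes 54.0% to 68.1% in the Bone libraries and 8.48% to 14.0% in the cartilage libraries, and the type IX chains are not visible in Bone.

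Ratios between chains of the same library do not depend on how libraries are scaled. Col11a1 to Col2a1, partners in the type XI trimer and the fibril, stood at 2.08, 4.63 and 5.11 per kb in Bone, 0.277, 0.327 and 0.293 in MatC and 0.322, 0.192 and 0.220 in ImC. The Bone libraries lay above all others, by 3.62 on the log2 scale over MatC and 3.94 over ImC (exact permutation test, two-sided, p = 0.1 for each, adjusted p = 0.21 over 21 tests). With 3 libraries against 3, the exact permutation test allows no p below 0.1, so no ratio could pass.

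Col11a2 to Col2a1 was at 0.714, 1.17 and 1.21 per kb in Bone, 0.0738, 0.183 and 0.273 in MatC and 0.157, 0.0965 and 0.279 in ImC. Bone was again above both cartilage groups without overlap, by 2.70 over MatC and 2.63 over ImC on the log2 scale (exact permutation p = 0.1 for each, adjusted p = 0.21). Col27a1 to Col2a1 overlapped in all 3 comparisons.

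Within type IX, Col9a1 to Col9a2 was at 1.60, 0.917 and 1.04 per kb in Bone, 4.87, 2.95 and 2.52 in MatC and 2.44, 1.53 and 1.11 in ImC. MatC was above ImC in all libraries, by 1.05 on the log2 scale or 2.06-fold (exact permutation p = 0.1, adjusted p = 0.21), although neither chain passed by itself. Col9a1 to Col9a3 was 1.73-fold higher in MatC than in ImC with overlapping libraries (exact permutation p = 0.2, adjusted p = 0.3). In Bone the type IX ratios rest on 20 to 70 reads per chain and library.

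**Figure D4:**
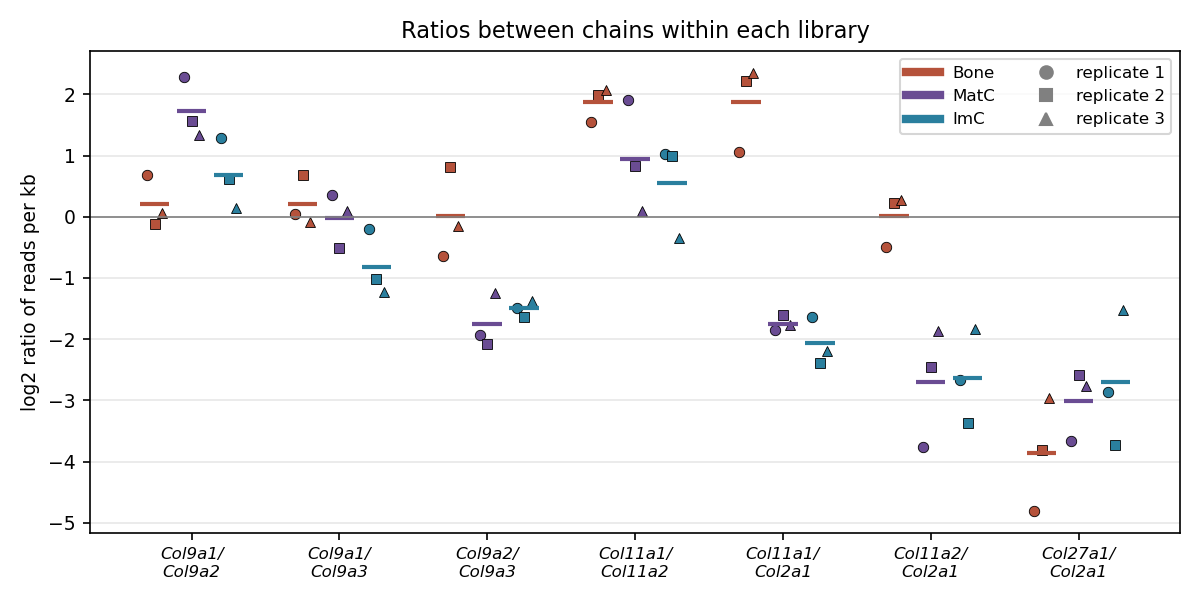
Log2 ratio of reads per kb between pairs of chains within each library, by group, with symbols for the replicate number and bars for the mean of 3 libraries. Col11a1/Col2a1 is above 1 (0 on the log2 axis) in the Bone libraries and below it in the cartilage libraries, and Col9a1/Col9a2 is higher in each MatC library than in any ImC library.

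The table holds 37 other collagen genes, of which 31 were tested. In Bone over ImC 9 of the 31 were called higher and 5 lower, with a median log2 fold change of 0.047, in Bone over MatC 2 passed and both were lower (median -0.51), and in MatC over ImC 8 were higher and 1 lower (median 1.25). Over all genes tested, 14.2% were called higher and 16.5% lower in Bone over ImC. In Bone over MatC 4.63% were lower, and in MatC over ImC 5.09% were higher and 2.15% lower. The 7 chains took 4.50% ± 0.205 (SD, n = 3) of all collagen reads in Bone, 58.4% ± 22.1 in MatC and 91.5% ± 5.43 in ImC. The Bone share was narrow, and MatC ranged from 33.8% in replicate 2 to 76.6% in replicate 3.

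Col1a2, a chain of the type I collagen of bone, averaged 45978 ± 5010.5 CPM in Bone, 5268 ± 5348 CPM in MatC and 291 ± 139 CPM in ImC (SD, n = 3). Its log2 fold change was 7.31 ± 1.11 in Bone over ImC (adjusted p = 0.00172, edgeR) and 4.18 ± 0.96 in MatC over ImC (adjusted p = 0.0313). The MatC libraries held 4412, 10992 and 399 CPM, and replicate 3 lay within the ImC range of 146 to 423 CPM. Col5a2, whose product joins Col11a1 chains in hybrid molecules, averaged 2030.3 ± 239.8 CPM in Bone, 447 ± 319 CPM in MatC and 23.5 ± 17.5 CPM in ImC, which gave a log2 fold change of 6.43 ± 0.97 in Bone over ImC (adjusted p = 0.00162) and 4.25 ± 0.87 in MatC over ImC (adjusted p = 0.0207). Col24a1, a fibrillar collagen known from bone, had log2 fold changes of 7.30 ± 1.17 (adjusted p = 0.00215) and 5.18 ± 1.07 (adjusted p = 0.0210). These 3 were the fibrillar collagens called in MatC over ImC of 6 tested, and that count was 0 without ImC replicate 1, and also 0 without MatC replicate 2.

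Among the other FACIT collagens, Col19a1 had 0 reads in every Bone library, against means of 0.193 ± 0.179 CPM for MatC and 2.13 ± 0.524 CPM for ImC (SD, n = 3). It was called lower in Bone than in ImC (adjusted p = 0.00309, edgeR). Col22a1 averaged 804 ± 100.04 CPM in Bone, 95.2 ± 135 CPM in MatC and 1.92 ± 0.657 CPM in ImC, so it was higher in Bone than in ImC by 8.69 ± 1.52 on the log2 scale (adjusted p = 0.00317, edgeR). Col16a1 averaged 27.4 ± 14.5 CPM in Bone, 38.7 ± 12.04 CPM in MatC and 143 ± 57.8 CPM in ImC, and was lower in Bone than in ImC by a log2 fold change of -2.38 ± 0.49 (adjusted p = 0.00668). Col10a1, the collagen of hypertrophic cartilage, was listed not with these but with the network and other collagens. It averaged 1.67 ± 0.819 CPM in Bone, 2170.1 ± 2244 CPM in MatC and 0.541 ± 0.181 CPM in ImC. Its libraries in MatC held 817, 933 and 4760.4 CPM, and its log2 fold change was 11.97 ± 1.03 in MatC over ImC (adjusted p = 0.000769).

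**Figure D5:**
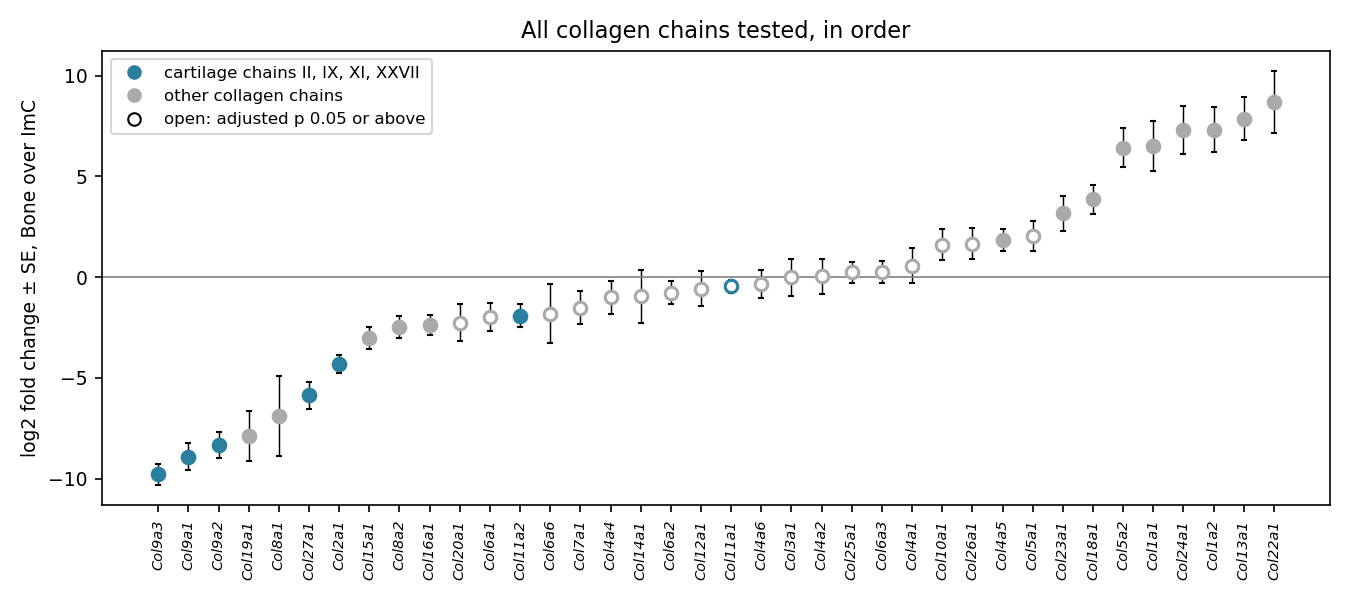
Log2 fold change with SE of all 38 collagen genes tested in Bone over ImC, in order; the 7 cartilage chains are coloured and open points have an adjusted p of 0.05 or above. Col9a3, Col9a1 and Col9a2 are the 3 lowest, Col27a1 and Col2a1 are at -5.85 and -4.29, and Col11a1 lies in the middle at -0.46.

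Most tested partners of these chains in the cartilage matrix were called lower in Bone. Of 23 tested, 15 were called lower and 2 higher in Bone over ImC, and 12 lower and 1 higher in Bone over MatC, with medians of -6.31 and -4.64 on the log2 scale. The shares of all genes tested were 16.5% lower and 14.2% higher in Bone over ImC, and 4.63% and 1.35% in Bone over MatC. Acan averaged 1.12 ± 0.698 CPM in Bone, 1039.6 ± 449 CPM in MatC and 1113 ± 241 CPM in ImC, with an adjusted p of 8.71e-05 for Bone over MatC and 4.09e-05 for Bone over ImC by edgeR. Comp, a pentameric protein that binds type II and IX collagen, averaged 0.687 ± 0.365 CPM in Bone, 1079 ± 808 CPM in MatC and 250.4 ± 148 CPM in ImC, and its log2 fold change in Bone over MatC was -10.56 ± 0.89 (adjusted p = 0.000262). In MatC over ImC, 5 partners were lower and 2 higher, among them Chad, which encodes chondroadherin, at -1.91 ± 0.38 (adjusted p = 0.0185), and Dcn, the proteoglycan decorin, at 3.75 ± 0.72 (adjusted p = 0.0163). That total of 7 was 3 without ImC replicate 1 and 2 without MatC replicate 1. Of all genes tested, 2.15% were lower and 5.09% higher in MatC over ImC.

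Of 19 tested transcription regulators of cartilage collagen genes, 5 were lower and 2 higher in Bone over ImC, 4 passed in Bone over MatC and all 4 were lower, and 4 were lower and 1 higher in MatC over ImC. The last total of 5 was 2 without ImC replicate 1, ImC replicate 2, MatC replicate 1 or any 1 Bone library, and 3 without MatC replicate 2 or 3. Over all genes tested, 16.5% were lower and 14.2% higher in Bone over ImC, and 4.63% were lower in Bone over MatC. In MatC over ImC the shares of all genes were 2.15% lower and 5.09% higher. Sox9, Sox5 and Sox8 were among the regulators called lower in Bone over ImC. Sox9 averaged 37.0 ± 8.37 CPM in Bone, 429 ± 216 CPM in MatC and 768 ± 189 CPM in ImC, with log2 fold changes of -3.53 ± 0.45 in Bone over MatC (adjusted p = 0.00231, edgeR) and -4.38 ± 0.47 in Bone over ImC (adjusted p = 0.000285). Sox5, which acts with Sox9 on the Col2a1 enhancer, averaged 5.69 ± 0.890 CPM in Bone, 67.7 ± 12.9 CPM in MatC and 297 ± 79.4 CPM in ImC, with an adjusted p of 0.000372 for Bone over MatC and 2.79e-05 for Bone over ImC. Sox8 averaged 0.747 ± 0.178 CPM in Bone, 8.09 ± 0.243 CPM in MatC and 43.5 ± 10.3 CPM in ImC, a log2 fold change of -5.86 ± 0.36 in Bone over ImC (adjusted p = 2.79e-05).

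The enzymes and carriers that modify and export procollagen were split: of 23 tested, 7 were higher and 7 lower in Bone over ImC, a total that was 4 with library size as the only scaling. Of all genes tested, 14.2% were higher and 16.5% lower in Bone over ImC with TMM. Colgalt2, a galactosyltransferase acting on collagen hydroxylysine, averaged 3.67 ± 1.39 CPM in Bone, 129.7 ± 64.4 CPM in MatC and 178 ± 34.2 CPM in ImC, and its log2 fold change was -5.14 ± 0.50 in Bone over MatC (adjusted p = 0.000437, edgeR). A pair of related transcription factors of the secretory pathway went opposite ways. Creb3l1, known from bone type I collagen secretion, averaged 207 ± 39.0 CPM in Bone, 40.1 ± 46.3 CPM in MatC and 0.730 ± 0.426 CPM in ImC, with an adjusted p of 0.000697 for Bone over ImC, and Creb3l2, known from cartilage matrix secretion, averaged 50.7 ± 6.76 CPM in Bone, 73.5 ± 10.01 CPM in MatC and 260.3 ± 16.6 CPM in ImC, with an adjusted p of 0.000282. In MatC over ImC both passed too, with Creb3l1 at 5.80 ± 0.94 (adjusted p = 0.00904) and Creb3l2 at -1.83 ± 0.25 (adjusted p = 0.00400).

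Of 12 tested propeptide cleavage and crosslinking genes, 3 were called higher and 2 lower in Bone over ImC. The shares of all genes tested were 14.2% higher and 16.5% lower in that comparison. Lox, a lysyl oxidase that crosslinks collagen, averaged 1276 ± 83.4 CPM in Bone, 312 ± 244 CPM in MatC and 5.50 ± 4.70 CPM in ImC, with an adjusted p of 0.00123 for Bone over ImC by edgeR. Loxl3, a related oxidase, averaged 5.64 ± 1.28 CPM in Bone, 69.5 ± 54.0 CPM in MatC and 139 ± 22.7 CPM in ImC, with an adjusted p of 0.000474. Of 17 collagen receptors and degradation genes, 7 passed in Bone over ImC and 5 in MatC over ImC, and every one of them was higher; Mmp13, a collagenase that cleaves type II collagen, averaged 32.1 ± 9.31 CPM in Bone, 33.2 ± 22.8 CPM in MatC and 0.0237 ± 0.0411 CPM in ImC. The 5 were 2 without ImC replicate 1 and 3 without ImC replicate 2, MatC replicate 2 or any 1 Bone library. Of all genes tested, 14.2% were higher in Bone over ImC and 5.09% in MatC over ImC.

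Genes whose pattern was most like that of the chains were named by Pearson correlation of log2 CPM over the 9 libraries, among 6059 genes with a mean of at least 20 CPM in their highest group. For Col2a1 the 3 highest were Susd5 (r = 0.992), Ncmap (r = 0.991) and Foxa3 (r = 0.991), and Matn1 was also among the first 10 (r = 0.978). For the mean of the 7 chains they were Gfpt2 (r = 0.991), Slc35d1 (r = 0.991) and Foxa3 (r = 0.988), and the first 10 also held Matn1 (r = 0.986) and Colgalt2 (r = 0.984). Gfpt2 makes hexosamine precursors and Slc35d1 carries nucleotide sugars used for cartilage proteoglycans. Slc35d1 averaged 11.2 ± 0.677 CPM in Bone, 128 ± 46.6 CPM in MatC and 169 ± 98.8 CPM in ImC. These correlations are set mostly by the distance of the 3 Bone libraries from the rest, and the points share their library's depth and composition.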

How the data were processed

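Per the labels' protocols, RNA was purified, treated with DNase, amplified for 1 round and prepared with the Illumina TruSeq RNA kit v2. Trimmomatic 0.30, HTSeq, Bowtie2, TopHat2 and edgeR appear in the submitters' processing notes, beside the build mm10, with no role for each. The authors' deposited table of raw counts gives whole reads per gene symbol and 0 rows that name no gene. Their second deposited table, a score of normalized values rounded to whole numbers, was used only to read back 1 factor per library for an alternative scaling.

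Comparisons used the quasi-likelihood test of edgeR 4.0.16 with robust estimation in R 4.3.3, on raw counts, with TMM factors, a filter on low counts (filterByExpr, minimum count 10) that kept 14257 genes and 1 fit over all 9 libraries. P-values were adjusted by Benjamini-Hochberg over all genes tested and called under 0.05; an SE is the size of a log2 fold change divided by the root of its F value. Ratios of chains used a pseudocount of 0.5 reads. Levels per kilobase use GENCODE M21 transcript lengths and assume even coverage, which a count table cannot show. Counting error of a library's collagen share was at most 0.258 percentage points (to either side, by 95% Wilson intervals). No replicates agreed within sampling noise (chi-square per degree of freedom of 15.5 or more). The test was run on simulated data first. All 7 chains are named; of each gene list, up to 3 called genes with the smallest p per comparison were eligible, and of each likeness list the 10 highest. The chains, lists and tests were chosen with earlier results of these data known. Alternatives were DESeq2 1.42.0, limma-voom (limma 3.58.1), other scalings, filters and samples.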

Additional observations from a re-analysis of the deposited data

How the results depend on the processing

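The counts of chains called were 5 of 7 in Bone over MatC under every alternative but DESeq2 (6), and 5 or 6 in Bone over ImC. In MatC over the midpoint the count was 3 with library size as the only scaling and 3 to 5 with single libraries left out. In MatC over ImC it was 0, with 1 (Col9a2, -1.29 on the log2 scale, adjusted p = 0.0410) without replicate 3 of both ImC and MatC, an alternative chosen after seeing the data, like the fit with no robust estimation. Sign or call changed for Col11a1, Col11a2, Col9a1, Col27a1 and Col2a1 as follows; the cause was not tested. With library size as the only scaling, where the median of all genes moved to -0.51 in MatC over ImC, 0.95 in Bone over MatC, 0.46 in Bone over ImC and -0.71 in MatC over the midpoint, Col9a1 was -0.33 in MatC over ImC, Col11a1 was 0.57, 0.052 and -0.55 in the other 3, Col11a2 was -1.28 in Bone over ImC and -0.54 over the midpoint, and Col2a1 (1.12) and Col27a1 (1.11) lost the midpoint call. RLE scaling gave 1.97 for Col27a1 over the midpoint, and DESeq2 gave -1.54 for Col11a2 in Bone over MatC, now called. Without replicate 3 of both groups Col9a1 was -0.29 in MatC over ImC.

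With 1 library left out at a time, MatC over ImC ran from -0.10 to 0.70 for Col9a1, -0.20 to 0.15 for Col11a1 and -1.10 to 0.23 for Col11a2. Bone over ImC ran from -2.21 to -1.31 for Col11a2. MatC over the midpoint ran from 1.70 to 2.05 for Col2a1, 1.67 to 2.44 for Col27a1 and -0.17 (without MatC replicate 3) to 0.91 for Col11a2. Log2 ratio differences turned for Col9a1/Col9a3 in Bone over MatC (-0.0087 to 0.43, the lowest without MatC replicate 2) and, in MatC over ImC without MatC replicate 1 and without ImC replicate 3, for Col11a1/Col11a2 (-0.091 and -0.062, range to 0.81), Col11a2/Col2a1 (0.47 and 0.33, range from -0.48) and Col27a1/Col2a1 (0.026 and 0.28, range from -0.81).

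Genes called over the whole table, the background of the shares above, depended more on the settings. Library size alone gave 323 in MatC over ImC, 281 in Bone over MatC, 2031 in Bone over ImC and 64 over the midpoint, with 53.9%, 39.5%, 59.1% and 93.8% of calls higher, against 70.3%, 22.6%, 46.2% and 97.4% of 1031, 853, 4381 and 418 with TMM. Limma-voom gave 40.0% higher in Bone over MatC, DESeq2 34.4%, and the fit to the groups compared 36.8%. DESeq2 gave 2229, 1964 and 963 in MatC over ImC, Bone over MatC and over the midpoint, only the groups compared gave 196 in MatC over ImC, no filter gave 670 over the midpoint, and without replicate 3 of both groups the counts were 1930, 1640 and 824. Leaving out 1 library gave 327 (ImC replicate 1) to 1199 (MatC replicate 3), 165 (Bone replicate 2) to 1705 (ImC replicate 3), 2270.0 (Bone replicate 2) to 5340.0 (MatC replicate 3) and 117 (Bone replicate 2) to 702 (ImC replicate 3). With 1 library left out, 2 to 6 network and other collagens and 0 to 1 other FACIT collagens were called in MatC over ImC, and 2 to 4 network and other collagens in Bone over MatC (4 without ImC replicate 3). Mean Bone levels by library size alone were 682.5 CPM for Col2a1, 5.42 for Col9a1, 3.64 for Col9a2, 3.81 for Col9a3, 3547 for Col11a1, 769 for Col11a2 and 67.2 for Col27a1, and MatC levels 2382 for Col11a1 and 865 for Col27a1.

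No label says whether the replicate numbers mark paired libraries. The deviations of same-numbered libraries correlated at -0.13 to 0.24 and those of other numbers at -0.40 to 0.36. The highest same-number values were those of ImC with MatC in replicate 3 (0.24) and replicate 1 (0.23). With so few libraries a group, these correlations can neither show nor exclude pairing. With the replicate number as a block, 0, 5, 6 and 5 of 7 chains were called in MatC over ImC, Bone over MatC, Bone over ImC and MatC over the midpoint, with 724, 826, 4099 and 354 genes.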

Other observations

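Within the 6 cartilage libraries the chains did not all vary together. Over the 21 pairs of chains the Pearson correlation of log2 CPM ranged from 0.02 to 0.98 with a median of 0.59, against 0.64 to 0.99 with a median of 0.86 over all 9 libraries. The highest were Col9a2 with Col9a3 (r = 0.98), Col9a1 with Col11a1 (r = 0.93) and Col11a2 with Col27a1 (r = 0.89), and the lowest was Col9a1 with Col27a1 (r = 0.02). These are descriptions over 6 libraries that share their tissue differences, depth and composition. Over the same 6 libraries, Parl was the most like the mean of the 7 chains among 6059 genes (r = 0.98). Next came Colgalt2 (r = 0.97), Pantr1 (r = 0.96), Mfn1 (r = 0.96), Foxa3 (r = 0.96) and Acan (r = 0.95). The first 10 also held Clk4, Gm8292, Hsp90aa1 and Rpl26.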
